A study of Mus musculus with 7 samples.

Results

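The genes examined were 9 that encode the proteases and the thiol reductase by which the lysosome cuts proteins into peptides for MHC class II: *Ctsl*, *Ctss*, *Ctsh*, *Ctsb*, *Ctsd*, *Ctsz*, *Ctsc*, *Lgmn* and *Ifi30*. They were chosen by name from 20839 genes listed in any library, and all 9 were listed in each of the 7 libraries. Levels were read in cells with no UMI of *Ptprc*, the gene of CD45, by 4 gates on marker genes that are not among the 9. On the scale of the deposited values, cells passed the Aire gate with *Aire* above 1.5, the Ccl21a gate with *Ccl21a* above 4, the Trpm5 gate with *Trpm5* above 0, and the cortical marker gate with at least 2 of the 3 genes *Psmb11*, *Ackr4* and *Prss16* above 0. The gates were compared in cells that passed exactly 1 of them: 1582 cells of the Aire gate, 2873 of the Ccl21a gate, 463 of the cortical marker gate and 315 of the Trpm5 gate, of 8220 cells without *Ptprc* and 8453 in all.

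The study followed thymic epithelial cells (TECs) of mice by droplet single-cell RNA sequencing, with 3 pooled thymi in each library and a sort for EpCAM+ CD45- cells. The lineage tracing library came from 6-week-old C57BL/6 mice that carried both Aire-CreERT2 and R26-CAG-Stopfl-zsGreen, in which Tamoxifen (2 mg) lets Cre made by *Aire*-expressing cells switch on ZsGreen for good. The other 6 libraries came from C57BL/6 mice given 100 ug of antibody in 3 treatments within 1 week. An isotype control was collected at week 2 (age 4 weeks) and at week 10 (age 12 weeks), and anti-RANKL, which blocks the signal that *Aire*-expressing cells depend on, was followed at weeks 2, 4, 6 and 10 (ages 4, 6, 8 and 12 weeks). Each treatment and week was 1 library, so a single week had no replicates, and the 4 anti-RANKL libraries, which differ in week and age, were not tested as a group against the 2 controls.

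Class II molecules reach the cell surface only after the invariant chain that blocks their groove has been cut away in acidic vesicles, and the same vesicles cut other proteins into the peptides that fill the groove. Cathepsins are the main proteases there, and different antigen presenting cells finish the invariant chain with different ones: cathepsin L is the enzyme known for this step in cortical TECs, and cathepsin S in dendritic cells and B cells. Because thymocytes are selected on the peptides that TECs display, the proteases a TEC makes bear on which peptides developing T cells meet.

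Median depth ran from 4300 to 16809 UMIs per cell across libraries, and of the 4 gates the Aire gate held the deepest cells, with medians of 7826 to 21326 UMIs. The smallest groups of cells were the 16 of the Trpm5 gate at week 6 and the 18 of the Aire gate at week 4. The marker lists include the genes of the gates, so their sums are in part set by the gating. Of genes not used for gating, *Lrmp* and *Avil*, tuft cell markers, had medians of 14.6 and 6.24 in the Trpm5 gate, and *Ccl25* and *Cxcl12*, made by cortical TECs, ran from 4.05 to 23.7 and from 6.14 to 14.2 in the cortical marker gate. The 10 tuft cell markers summed to 26.0 to 57.3 UMIs per 10000 in the Trpm5 gate and to at most 1.85 in each of the other 3. The 8 cortical TEC markers summed to 21.2 to 66.0 in the cortical marker gate and to at most 4.15 in the Ccl21a gate, but reached 5.15 to 24.3 in the Aire gate, where *Ccl25* alone had a median of 5.21. Levels below are UMIs of a gene per 10000 UMIs summed over the cells of a gate in a library, and differences between gates are log2 differences from 1 limma fit over all 8779 genes with a mean level of at least 0.1, with the library as a block.

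*Ctsl*, which encodes cathepsin L, was the gene that separated the gates most. Its level in the Aire gate was lowest at 0.826, had a median of 2.09 and was highest at 6.47 over the 7 libraries. In the Ccl21a gate the lowest, median and highest levels were 17.3, 26.1 and 29.3, and in the cortical marker gate 28.1, 37.3 and 53.3. In the Trpm5 gate they were 1.30, 3.91 and 8.28. The Aire and Trpm5 gates therefore stood below the other 2 in every library, with no overlap between the 2 sides. The level was 11.2-fold higher in the Ccl21a gate than in the Aire gate (log2 difference 3.48 lower in the Aire gate, SE 0.28, adjusted p = 2.6e-10) and 16.8-fold higher in the cortical marker gate (adjusted p = 2.8e-11). The order was cortical marker, Ccl21a, Trpm5 and Aire gate. The first 2 of that order did not pass the test of their difference (log2 difference -0.59, 95% interval -1.16 to -0.02, Ccl21a gate minus cortical marker gate, adjusted p = 0.17), and neither did the last 2 (-0.67, interval -1.24 to -0.09, Aire gate minus Trpm5 gate, adjusted p = 0.052), although the Ccl21a gate was below the cortical marker gate and the Aire gate below the Trpm5 gate in 7 of 7 libraries. That last pair passed in 5 of 18 alternative settings, among them without the week 10 control (adjusted p = 0.034) and without the week 6 anti-RANKL library (adjusted p = 0.017).

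**Figure D1:**
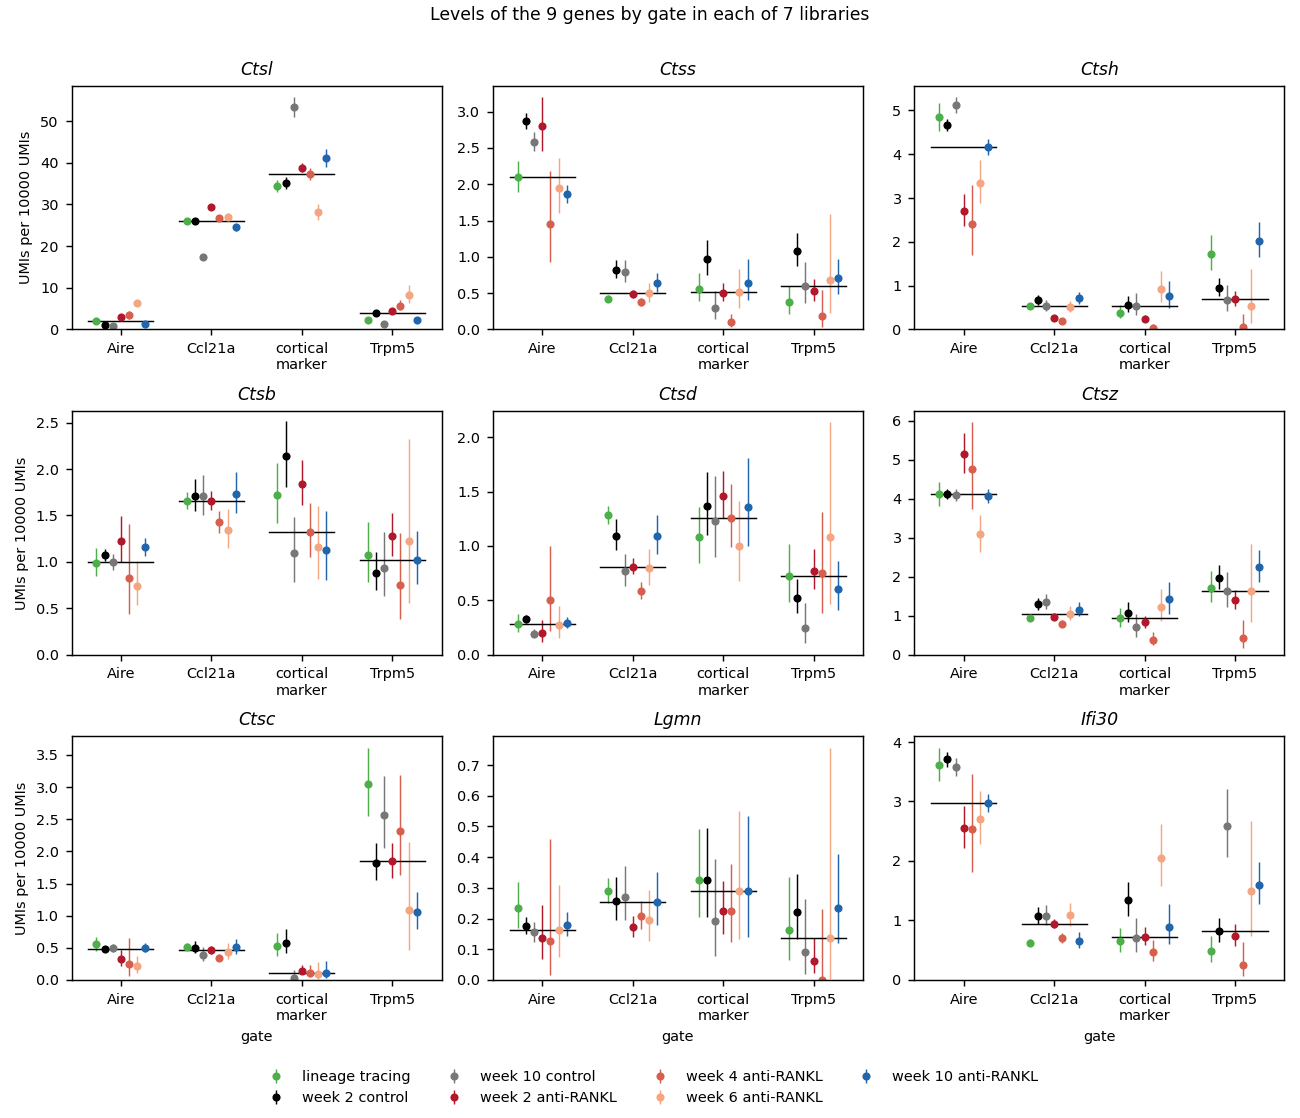
Level of each gene (UMIs per 10000 UMIs, linear axes from 0) by gate. Each point is a library with its exact 95% Poisson interval, and the black lines are medians over 7 libraries; *Ctsl* is high in the Ccl21a and cortical marker gates, *Ctss*, *Ctsh*, *Ctsz* and *Ifi30* in the Aire gate, and *Ctsc* in the Trpm5 gate.

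A group of 4 genes went the other way and was highest in the Aire gate. *Ctss* encodes cathepsin S, the endopeptidase named above; *Ctsh* encodes cathepsin H, an aminopeptidase; *Ctsz* encodes cathepsin Z, a carboxypeptidase; and *Ifi30* encodes GILT, which reduces disulfide bonds so that proteases can reach the chain. *Ctss* had a lowest, median and highest level of 1.46, 2.09 and 2.88 in the Aire gate, against 0.376, 0.499 and 0.825 in the Ccl21a gate. *Ctsh* had 2.41, 4.17 and 5.11 against 0.204, 0.543 and 0.707. For both genes every library of the Aire gate was above every library of each other gate.

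*Ctsz* ran from 3.09 to 5.16 in the Aire gate (median 4.11) and from 0.795 to 1.35 in the Ccl21a gate (median 1.06). *Ifi30* ran from 2.54 to 3.71 (median 2.97) and from 0.623 to 1.09 (median 0.945). *Ctsz* did not overlap between the Aire gate and any other, while *Ifi30* overlapped only with the Trpm5 gate, where the week 10 control reached 2.59. Against the Ccl21a gate the log2 differences were 2.78 for *Ctsh* (SE 0.25), 1.87 for *Ctsz* (SE 0.19), 1.79 for *Ctss* (SE 0.18) and 1.72 for *Ifi30* (SE 0.25), with adjusted p from 2.4e-09 to 3.8e-06. All 4 were also higher in the Aire gate than in the cortical marker gate (1.69 to 2.94) and the Trpm5 gate (1.46 to 2.23). Between the other 3 gates, *Ctss* and *Ifi30* passed no test in this fit, but with cells of several gates kept both were higher in the Trpm5 gate than in the Ccl21a gate (0.57 and 0.70 lower in the Ccl21a gate, adjusted p = 0.014 and 0.007).

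The RefSeq windows of 250 bases before the annotated start (build GRCm38.p6) were read for these genes because *Ctss*, *Ctsz* and *Ifi30* were high in the same gate, with *Ctsc*, which was high in another, beside them. Of the 9 genes 7 were matched, with 8 windows, and *Ctsh* and *Ctsb* were not. The 4 windows shown lie outside the gene as GENCODE vM21 annotates it; those of *Ctsl*, *Ctsd* and *Lgmn* lie partly or wholly inside the gene and are not printed. Each is 5′ to 3′ on the strand of the gene: chr3:95526536-95526785 (+) for *Ctss*, chr2:174439040-174439289 (-) for *Ctsz*, chr8:70766664-70766913 (-) for *Ifi30* and chr7:88277835-88278084 (+) for *Ctsc*. Capitals mark 3 motifs searched on both strands: CACGTG, the core of the element bound by TFEB at lysosomal genes, GAAANNGAA, a repeat of interferon response elements, and CCAAT.
Ctss: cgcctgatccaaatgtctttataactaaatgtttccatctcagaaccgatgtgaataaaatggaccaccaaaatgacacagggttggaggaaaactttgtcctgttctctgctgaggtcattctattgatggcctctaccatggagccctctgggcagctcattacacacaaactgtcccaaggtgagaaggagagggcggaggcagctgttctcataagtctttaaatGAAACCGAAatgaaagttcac
Ctsz: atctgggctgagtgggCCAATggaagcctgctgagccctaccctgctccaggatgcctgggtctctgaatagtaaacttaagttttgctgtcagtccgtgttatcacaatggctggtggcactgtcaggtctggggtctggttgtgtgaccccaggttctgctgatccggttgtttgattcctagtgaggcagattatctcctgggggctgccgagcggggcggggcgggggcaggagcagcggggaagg
Ifi30: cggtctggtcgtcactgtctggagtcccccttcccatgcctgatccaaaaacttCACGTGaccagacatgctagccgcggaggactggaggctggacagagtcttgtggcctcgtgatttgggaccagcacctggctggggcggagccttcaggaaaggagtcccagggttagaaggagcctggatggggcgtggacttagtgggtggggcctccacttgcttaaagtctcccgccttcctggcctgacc
Ctsc: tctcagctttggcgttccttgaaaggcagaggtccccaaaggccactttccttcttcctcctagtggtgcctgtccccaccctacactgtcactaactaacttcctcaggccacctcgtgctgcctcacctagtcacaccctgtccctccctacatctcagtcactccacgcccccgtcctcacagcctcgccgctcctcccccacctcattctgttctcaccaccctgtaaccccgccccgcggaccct
The 3 windows of genes high in the Aire gate shared none of these motifs. *Ctss* held the interferon repeat as GAAACCGAA from 21 bases before the start, *Ifi30* held CACGTG from 196 bases before it, *Ctsz* held CCAAT from 234 bases before it, and *Ctsc* held none of the 3. CACGTG stood in windows of 4 of the 7 matched genes (*Ctsl*, *Ctsd*, *Lgmn* and *Ifi30*), while 6.02% of 32851 windows of the same length held it. Of these windows, that of *Ifi30* alone lies outside the gene as GENCODE annotates it. The first value counts genes and the second windows, so they are not like for like. GAAANNGAA was held by 7.13% and CCAAT by 33.8% of those windows.

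The remaining genes differed less or in another gate. *Ctsd* encodes cathepsin D, an aspartic protease. Its lowest, median and highest levels were 0.194, 0.285 and 0.507 in the Aire gate, 0.589, 0.811 and 1.28 in the Ccl21a gate, and 0.996, 1.26 and 1.46 in the cortical marker gate. It was lower in the Aire gate than in each other gate, by 1.36 on the log2 scale against the Ccl21a gate (SE 0.19, adjusted p = 2.1e-06), and the Aire gate overlapped with the Trpm5 gate alone. *Ctsc* encodes cathepsin C, a dipeptidyl peptidase that activates granule proteases. It was highest in the Trpm5 gate at 1.05 to 3.04 (median 1.84), and no library of another gate reached more than 0.579. Its log2 difference was 2.82 over the cortical marker gate (SE 0.24, adjusted p = 6.5e-10), 2.00 over the Aire gate and 1.82 over the Ccl21a gate.

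*Ctsb*, which encodes the broadly expressed cathepsin B, had differences between gates of at most 0.64 on the log2 scale. It ran from 0.741 to 1.23 in the Aire gate, 1.34 to 1.73 in the Ccl21a gate, 1.09 to 2.14 in the cortical marker gate and 0.749 to 1.28 in the Trpm5 gate. The Ccl21a gate did not overlap with the Aire gate or the Trpm5 gate. *Ctsb* was higher in the Ccl21a gate than in the Trpm5 gate (log2 difference 0.62, SE 0.12, adjusted p = 0.00021, limma). Its log2 difference of -0.64 between the Aire and Ccl21a gates (SE 0.12, adjusted p = 0.00013) did not pass with *Ptprc* cells kept (-0.41, adjusted p = 0.063). *Lgmn*, which encodes the asparaginyl endopeptidase legumain, had the lowest median level except in the cortical marker gate (0.289, against 0.116 for *Ctsc*). It had no UMI in the Trpm5 gate at week 4 and at most 0.327 in any gate and library. It was higher in the Ccl21a gate than in the Trpm5 gate (log2 difference 0.64, SE 0.15, adjusted p = 0.0015), which did not pass after thinning to 2000 UMIs per cell (0.88, adjusted p = 0.065).

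**Figure D2:**
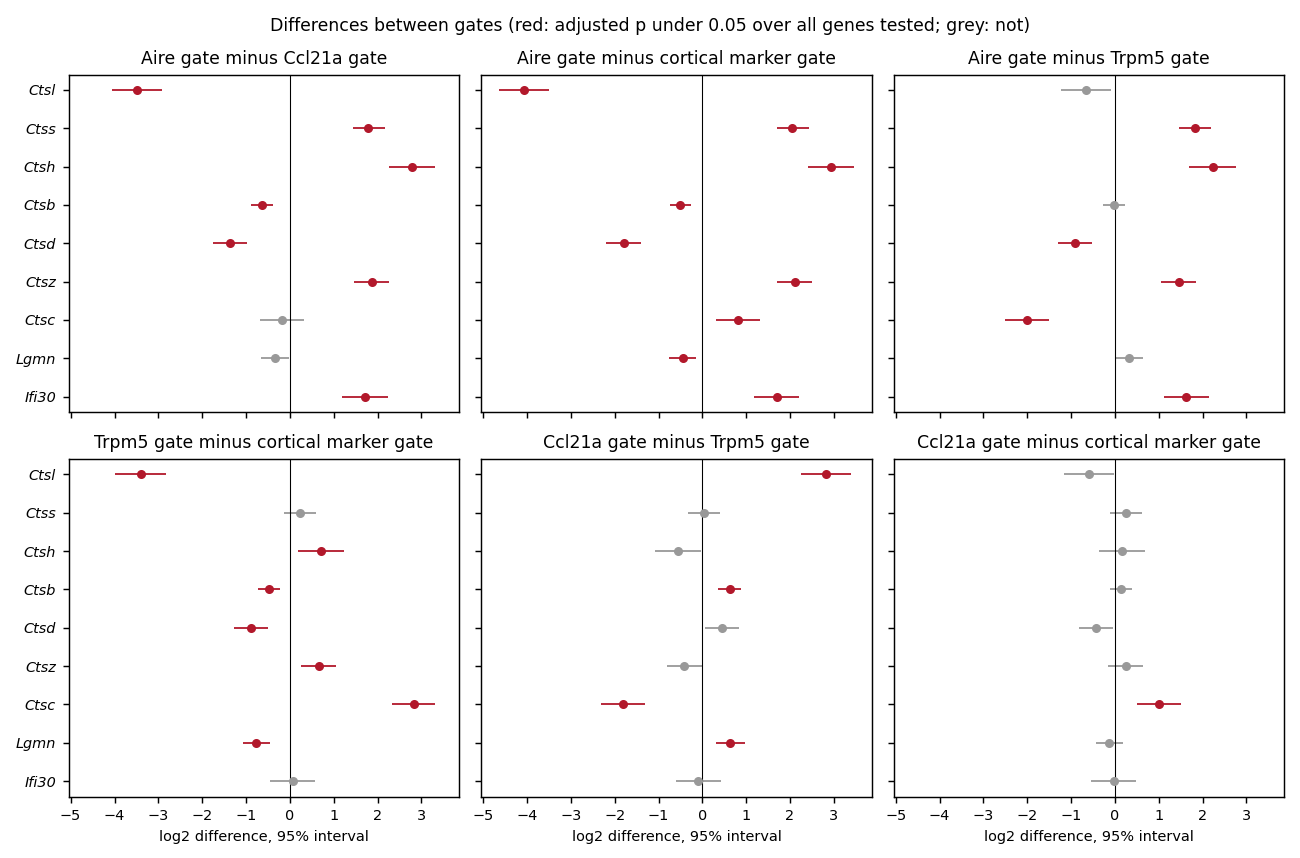
Log2 difference of each gene between 2 gates, first minus second, with its 95% interval from the limma fit over 7 libraries. Red points passed an adjusted p of 0.05 over all 8779 genes; the panel of the Ccl21a and cortical marker gates has 1 red point, *Ctsc* at 1.00.

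Between the Aire and Ccl21a gates, 4 of the 9 genes passed as higher in the Aire gate, where 18.3% of all genes did, and 3 as higher in the Ccl21a gate, where 25.4% did. Between the Aire and cortical marker gates 5 passed as higher in the Aire gate (16.9% of all genes) and 4 as higher in the cortical marker gate (30.4%). Between the Aire and Trpm5 gates the counts were 4 (17.2%) and 2 in favour of the Trpm5 gate (29.3%). The genes were thus called in both directions, and the 3 that favoured the Ccl21a gate and the 2 that favoured the Trpm5 gate were near the share of all genes. *Lgmn*, *Ctsc* and *Ctsb* between the Aire and cortical marker gates passed in some settings and not in others. *Lgmn* (-0.45, lower in the Aire gate in 7 of 7 libraries, adjusted p = 0.018) did not pass without the week 2 control (-0.42, adjusted p = 0.053), and *Ctsc* (0.82, higher in 6 of 7, adjusted p = 0.0071) did not pass without the 4 anti-RANKL libraries (0.68, adjusted p = 0.24). *Ctsb* (-0.50, adjusted p = 0.0016) did not pass after thinning to 2000 UMIs (-0.27, adjusted p = 0.29) or with *Ptprc* cells kept (-0.24, adjusted p = 0.27).

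The Ccl21a and cortical marker gates differed in 1 of the 9 genes, *Ctsc*, which was higher in the Ccl21a gate (log2 difference 1.00, SE 0.24, adjusted p = 0.0049) where 5.99% of all genes were. None was higher in the cortical marker gate, where 9.53% of all genes were, and without the week 4 and week 6 libraries *Ctsl* passed as well (-0.72, adjusted p = 0.047). With the mean of deposited values, *Ctsd* passed as higher in the cortical marker gate (-0.29, adjusted p = 0.0053) and *Ctss* as higher in the Ccl21a gate (0.16, adjusted p = 0.045). Without any anti-RANKL library, *Ctsc* did not pass (0.58, adjusted p = 0.45). Between the Ccl21a and Trpm5 gates 3 genes were higher in the Ccl21a gate (*Ctsl*, *Ctsb* and *Lgmn*, against 19.9% of all genes) and *Ctsc* in the Trpm5 gate (24.5%). That total of 4 rose to 7 without the week 4 anti-RANKL library, in which *Ctsh* and *Ctsz* joined the Trpm5 side and *Ctsd* the Ccl21a side. Between the Trpm5 and cortical marker gates, *Ctsc*, *Ctsh* and *Ctsz* were higher in the Trpm5 gate (20.3% of all genes) and *Ctsl*, *Ctsb*, *Ctsd* and *Lgmn* in the cortical marker gate (22.1%). *Ctsh* there (0.71, adjusted p = 0.026) did not pass without the lineage tracing library (0.51, adjusted p = 0.14), the week 2 control (0.72, adjusted p = 0.057), the week 2 anti-RANKL library (0.62, adjusted p = 0.093) or the week 10 anti-RANKL library (0.61, adjusted p = 0.077). After thinning, *Ctsz* (0.23, adjusted p = 0.56), *Ctsb* (-0.33, adjusted p = 0.17) and *Lgmn* (-0.70, adjusted p = 0.14) did not pass there.

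A second scaling by median ratios moved the median of all genes by 0.17 towards the Aire gate against the cortical marker and Trpm5 gates. Under it *Ctsb* between the Aire and Trpm5 gates turned from -0.02 to 0.18 and *Ifi30* between the Ccl21a and cortical marker gates from -0.03 to 0.04, none of them past the test, while *Ctsd* between the Ccl21a and Trpm5 gates, at 0.45 (adjusted p = 0.058), passed at 0.49 (adjusted p = 0.012).

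RNA of other cells was measured beside these levels. The 12 markers of myeloid and dendritic cells summed to 3.43 to 9.25 UMIs per 10000 in the Aire gate (median 7.83) and to a median of 0.498 in the Ccl21a gate, 1.13 in the cortical marker gate and 2.23 in the Trpm5 gate. *Lyz2* gave most of this, with a median of 6.21 in the Aire gate, and 5 of the 12 had a median of at least 0.1 there. The other 4 of these were *Fcer1g* at 0.499, *C1qb* at 0.362, *Tyrobp* at 0.123 and *C1qa* at 0.115, against 0.0276, 0.0123, 0.0246 and 0.00982 in the Ccl21a gate. In the Aire gate *Itgax*, *Siglech* and *Csf1r* had medians of 0.00337, 0 and 0.0545, against 0, 0 and 0.00707 in the Ccl21a gate. *Adgre1* (0.0503 against 0), *Flt3* (0.0293 against 0) and *Xcr1* (0.011 against 0.00341) were also higher in the Aire gate. *Cd14* was lower there (0.0253 against 0.0736). With the 78 Aire gate cells left out that held UMIs of at least 3 of the markers other than *Lyz2*, a setting chosen after the data were seen, the log2 differences to the Ccl21a gate were 2.73 for *Ctsh*, 1.83 for *Ctsz*, 1.77 for *Ctss* and 1.69 for *Ifi30*, and all 4 still passed. The part of myeloid RNA in the remaining differences was not tested. The 15 cells with *Ptprc*, at least 3 such markers and no CD3 gene held *Ctsb* at 15.5 (Poisson interval 13.7 to 17.4) and *Ctsd* at 6.76, levels that no gate reached in any library.

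Shares of cells with a UMI gave the same split at equal depth. After thinning every cell to 2000 UMIs, the median share over libraries with a *Ctsl* UMI was 27.8% in the Aire gate, 30.2% in the Trpm5 gate, 92.2% in the Ccl21a gate and 90.7% in the cortical marker gate. Unthinned, the shares of the Aire and Ccl21a gates were 83.3% and 97.1%. For *Ctsh* the thinned median was 48.3% in the Aire gate and 7.28% in the Ccl21a gate, for *Ctsz* 46.2% and 16.9%, for *Ifi30* 37.8% and 13.6%, and for *Ctss* 34.0% and 9.17%. *Ctsc* was found in 28.0% of thinned Trpm5 gate cells and in 7.25% of the Aire gate. In T cells without *Epcam* UMIs, described next, the thinned share over 18 cells was 33.3% for *Ctsl* (exact binomial interval 13.3 to 59.0). The *Ctsl* shares were at or below the upper end of that interval in 7 of 7 libraries of the Trpm5 gate. In the Aire gate they were so in 6 of 7, the exception being week 6 after anti-RANKL (60.9%). The interval of 18 cells is wide, so these shares cannot tell background from low *Ctsl* of the cells themselves. The same T cells had shares of 33.3% for *Ctsb*, 22.2% for *Ctsz* and 11.1% for *Ctss* and *Ctsh*, but T cells are not known to lack these genes, so no background was set for them.

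T cells that had passed the sort were measured as cells that should lack epithelial RNA. Of 58 cells with *Ptprc* and at least 2 of the 3 CD3 genes, 38 also held *Epcam* UMIs, and their *Ctsl* level was 37.7 at a median depth of 15950 UMIs. The 20 without *Epcam*, a split made after the values were seen, had *Ctsl* at 0.816 (Poisson interval 0.422 to 1.43) at a median depth of 5292 UMIs, with a UMI in 40.0% of cells. The Aire gate levels of the week 10 control (0.826), the week 2 control (1.19) and week 10 after anti-RANKL (1.41) lay within that interval, as did the Trpm5 gate level of the week 10 control (1.30). Above it lay the Aire gate levels with lineage tracing (2.09) and at weeks 2, 4 and 6 after anti-RANKL (3.11, 3.42 and 6.47). All other Trpm5 gate levels, up to 8.28, were also above it. These 20 cells held *Ctss* at 2.92 (2.12 to 3.94) and *Ctsh* at 2.45 (1.71 to 3.39), in 30.0% and 20.0% of cells. The Aire gate levels of *Ctsh* at weeks 2, 4 and 6 after anti-RANKL (2.71, 2.41 and 3.34) lay within the second interval, and 3 of the 7 *Ctss* levels of that gate (2.58, 2.81 and 2.88) lay within the first and the other 4 below it. Their *Ctsb* was 1.63 (1.05 to 2.43), *Ctsz* 1.36, *Ifi30* 1.29 and *Ctsd* 0.884, within or above the range of several gates. Whether these T cells hold such RNA of their own or from outside was not tested.

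Cells that passed the Ccl21a and the cortical marker gate together, and no other, held the highest *Ctsl* levels. This group of 414 cells was looked at after its values had been seen, and it was not tested. It had *Ctsl* at 53.3 with lineage tracing, 87.8 and 60.9 in the week 2 and week 10 controls, and 83.1, 79.9, 54.0 and 79.1 at weeks 2, 4, 6 and 10 after anti-RANKL. Each level exceeded that of both single gates in its own library, in 7 of 7 libraries, by 2.01-fold to 3.51-fold over the Ccl21a gate and 1.14-fold to 2.49-fold over the cortical marker gate. The cells were deeper than those of both single gates in 6 of 7 libraries, for example with a median of 11830 UMIs against 8322 in the Ccl21a gate and 8969 in the cortical marker gate with lineage tracing. The exception was the week 2 control, with a median of 9604 UMIs in 14 cells, the fewest. In the same cells *Ctsz* was below the Ccl21a gate in 7 of 7 libraries and *Ctss* in 6 of 7, while *Ctsb* had a median ratio of 0.911 to it. Whether some of them are 2 cells in 1 droplet was not tested.

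**Figure D3:**
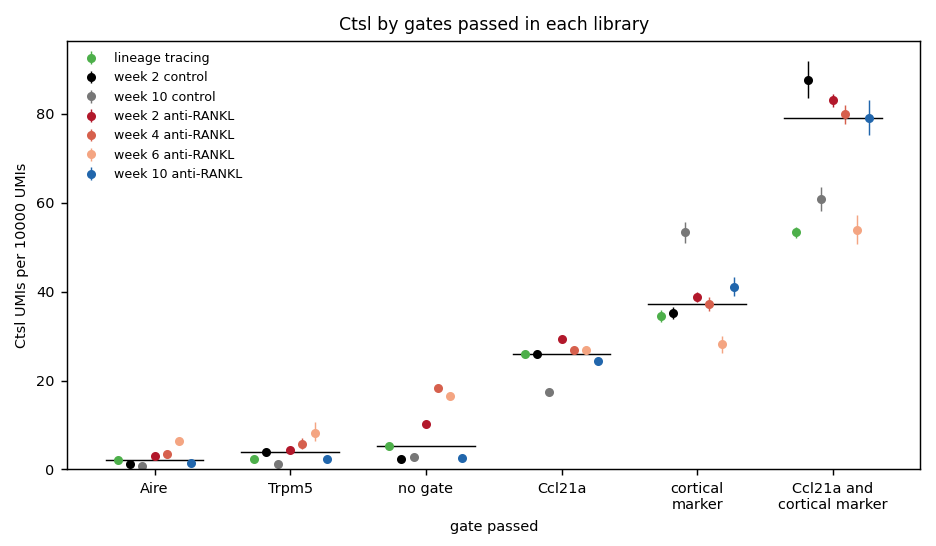
*Ctsl* level (UMIs per 10000 UMIs, linear axis from 0) by the gates a cell passed. Points are libraries with exact 95% Poisson intervals and black lines are medians; cells passing the Ccl21a and cortical marker gates together had a median of 79.1, against 26.1 and 37.3 for cells passing 1 of them.

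Along the *Aire* axis, *Ctsd* stood lower and *Ifi30* higher with each step in 7 of 7 libraries. How many of all genes did so is not given here. The top step, *Aire* above 1.5, holds the same cells as the Aire gate, so its levels repeat those given above. The medians of *Ctsl* fell and those of *Ctss* and *Ctsz* rose with each step, but not in every library. At week 10 after anti-RANKL the middle step was lowest for all 3, with *Ctsl* at 4.84, 1.13 and 1.41, *Ctss* at 1.47, 1.28 and 1.86 and *Ctsz* at 3.82, 2.78 and 4.07, and at week 6 *Ctsz* was 3.09 in both of the last steps. Among cells outside the other 3 gates, the median level of *Ctsl* over 7 libraries was 7.76 where *Aire* was 0, 3.15 where it was above 0 to 1.5 and 2.09 above 1.5. *Ctsd* stood at 1.83, 0.611 and 0.285 in the same steps. *Ifi30* stood at 1.28, 2.04 and 2.97, *Ctsz* at 2.45, 3.52 and 4.11, and *Ctss* at 1.47, 1.73 and 2.09. *Ctsh* was 2.35, 2.10 and 4.17, so it did not follow the middle step. These are medians with no test, and the middle step of week 4 held 12 cells.

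The lineage tracing library allows cells that carry ZsGreen to be compared with and without *Aire*. The reporter transcript, taken to be the one listed there as GFP, was found in 168 cells with *Aire* and in 74 without it, outside the other 3 gates. *Ctsd* was 2.64 (Poisson interval 2.28 to 3.05) in the cells with ZsGreen only and 0.502 (0.422 to 0.592) in those with both, 5.27-fold higher (4.21 to 6.61). *Ctsl* was 5.85 against 2.44, 2.40-fold higher (2.12 to 2.71), and *Ctsc* was 2.21-fold higher (1.67 to 2.90). The 4 genes of the Aire gate were lower in cells with ZsGreen only, at a ratio of 0.554 for *Ifi30* (0.444 to 0.686), 0.584 for *Ctss* (0.460 to 0.733), 0.647 for *Ctsh* (0.548 to 0.761) and 0.649 for *Ctsz* (0.552 to 0.759). The 64 cells with neither transcript also differed from those with both, with *Ctsl* at 10.5, *Ctsd* at 1.53, *Ctsh* at 2.61, *Ctsz* at 2.24 and *Ifi30* at 1.14, while their *Ctsc* was 0.367 against 0.541. Higher *Ctsl* and *Ctsd* and lower *Ctsh*, *Ctsz* and *Ifi30* were thus found without *Aire* whether or not ZsGreen was. The 26 cells with *Aire* only had *Ctss* at 1.05 (0.761 to 1.41), near the 1.21 of cells with ZsGreen only and below the 2.07 of cells with both, so *Ctss* did not follow *Aire* here, while their *Ifi30* was 4.07. The intervals cover counting error only, from 1 library and cells with median depths of 7162 and 14778 UMIs.

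Over all TECs without *Ptprc*, the 2 controls were close for *Ctsl* and the 4 genes of the Aire gate. *Ctsl* was 6.12 and 6.42 in the week 2 and week 10 controls, and 28.3, 29.9, 20.9 and 7.55 at weeks 2, 4, 6 and 10 after anti-RANKL. *Ctsh* was 3.28 and 3.41 in the controls, and 0.791, 0.297, 1.18 and 2.91 after treatment. *Ctss* was 2.16 and 2.06, then 0.797, 0.362, 0.881 and 1.43. *Ctsl* was highest and *Ctsh* and *Ctss* lowest at week 4, and at week 10 *Ctss* was still at 0.697 of its control (Poisson interval of the ratio 0.655 to 0.742).

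The proportions of the gates moved at the same time. The Aire gate held 36.3% and 41.3% of cells in the controls and 3.80%, 1.24%, 10.0% and 35.5% at weeks 2, 4, 6 and 10, while the Ccl21a gate held 12.4% and 13.7% in the controls and 43.6%, 56.0%, 37.6% and 17.6% after treatment. With the shares of UMIs of all classes of cells held at the mean of the controls, *Ctsl* at week 4 was 2.17-fold the mean of the controls instead of 4.77-fold. *Ctsz* was at 0.786 instead of 0.256, *Ifi30* at 0.535 instead of 0.257, *Ctss* at 0.409 instead of 0.172 and *Ctsh* at 0.390 instead of 0.0888. With the shares fixed, *Ctsz* was at 0.978 of the controls at week 2 and at 0.691 at week 6, instead of 0.455 and 0.516.

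**Figure D4:**
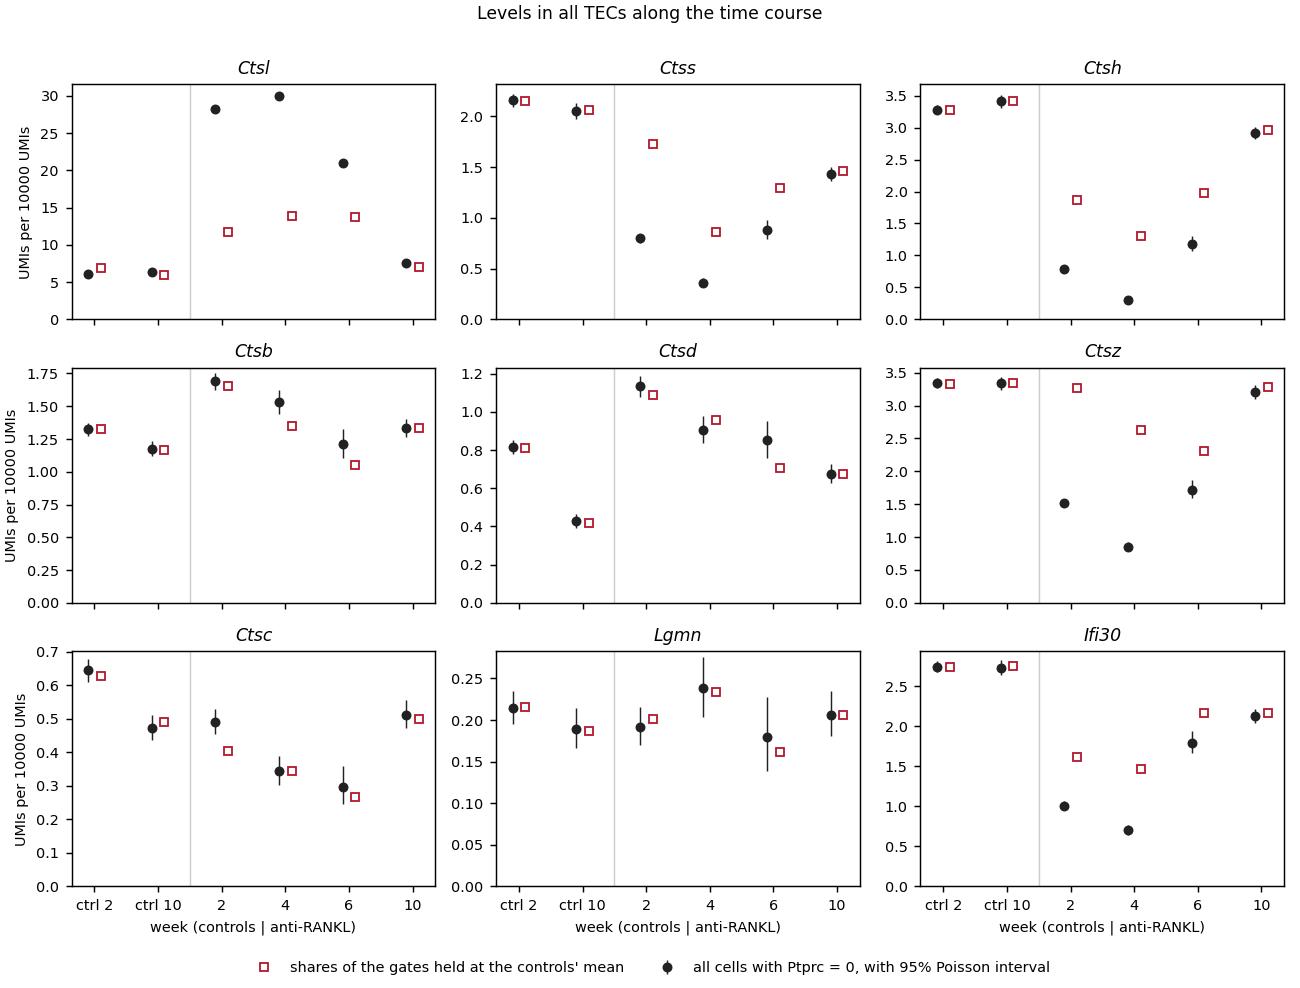
Level of each gene (UMIs per 10000 UMIs, linear axes from 0) over all cells without *Ptprc* in the 2 controls and 4 anti-RANKL libraries, as black points with exact 95% Poisson intervals, and with the shares of the gates held at the mean of the controls, as red squares. At week 4 the black point of *Ctsl* is at 29.9 and that of *Ctsh* at 0.297, and in both cases the red square lies nearer to the controls.

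At week 2, 5 of the 9 genes were at least 1.5-fold from the control of that week in either direction, where 32.2% of all genes were. *Ctsl* was 4.62-fold higher (interval 4.53 to 4.71), and *Ctsh*, *Ifi30*, *Ctss* and *Ctsz* were at 0.241, 0.368, 0.370 and 0.455 of the control. At week 10 only *Ctsd* was past 1.5-fold, at 1.58 (1.42 to 1.77), against 4.6% of all genes. Its controls differed from each other, at 0.815 and 0.428, and against the mean of both controls no gene of the 9 was past 1.5-fold.

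Within the Aire gate *Ctsl* was 1.19 and 0.826 in the controls and 3.11, 3.42, 6.47 and 1.41 at weeks 2, 4, 6 and 10. It was above both controls in 4 of 4 treated libraries. By level both controls and week 10 lay within the interval of the T cells, and weeks 2, 4 and 6 lay above it. By thinned share only week 6 was above their wide interval. Whether *Ctsl* changed within these cells was not tested. *Ctsh* was 4.66 and 5.11 in the controls and 2.71, 2.41, 3.34 and 4.17 after treatment, and *Ifi30* was 3.71 and 3.58, then 2.55, 2.54, 2.71 and 2.97, both below both controls in 4 of 4. How many of all genes held such an order in this gate is not given here. *Ctsz* had no such shift, with 4.11 and 4.09 in the controls and 5.16, 4.76, 3.09 and 4.07 after treatment. *Ctsl* in this gate was 9.94% to 30.9% of the level of the whole library and was highest at week 6, while that of the whole library was highest at week 4. In the Trpm5 gate it went from 3.91 and 1.30 in the controls to 4.38, 5.74, 8.28 and 2.36 at weeks 2, 4, 6 and 10. The part of RNA from outside the cells in these levels was not tested.

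At week 2, 3 of the 9 genes in the Aire gate were at least 1.5-fold from the control, where 28.2% of all genes were: *Ctsl* at 2.62-fold (2.28 to 3.01), *Ctsh* at 0.581 (0.505 to 0.666) and *Ctsd* at 0.604 (0.341 to 0.997, on 16 UMIs after treatment). For *Ctsl* the control level (1.19) lay within the interval of the T cells and the treated level (3.11) above it. The part of RNA from outside the cells in this ratio was not tested. With cells of more than 1 gate kept, 1 of the 9 genes was at least 1.5-fold from the control. At week 10 *Ctsl* (1.71) and *Ctsd* (1.51) were, against 7% of all genes, and neither was against the mean of both controls. Both *Ctsl* levels of the week 10 ratio lay within the interval of the T cells, so that ratio is not read as a change.

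Within the Ccl21a gate *Ctsl* ranged from 17.3 to 29.3 over the 7 libraries and was above both controls in 3 of 4 treated libraries. *Ctss*, *Ctsz* and *Lgmn* were lower in each treated library than in both controls. How many of all genes held such an order is not given here. For *Lgmn* week 10 was at 0.255 on 36 UMIs, against 0.258 and 0.272 in the controls. Its ratio to the week 10 control was 0.937 (0.581 to 1.51), so no shift is read there. *Ctss* was 0.825 and 0.795 in the controls and 0.487, 0.376, 0.500 and 0.637 at weeks 2, 4, 6 and 10. At week 2 *Ctsh* (0.390), *Ctss* (0.591) and *Lgmn* (0.667) were past 1.5-fold, against 15.2% of all genes, and at week 10 only *Ifi30* (0.609), against 19.7%. The *Ctsh* and *Ctss* levels of this gate were all below those of the T cells without *Epcam*, and the part of RNA from outside the cells in these ratios was not tested. *Ctsh* in this gate was lowest at weeks 2 and 4, as in the whole library, and stood at 15.9% to 68.6% of the level of the whole library.

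The genes around the 9 in the lysosome were described from lists of other proteases, cystatins, membrane and proton pump genes, hydrolases, sorting and control genes, and class II presentation. Of 10 class II genes, 7 were higher in the Aire gate than in the Ccl21a gate and none lower, where 18.3% of all genes were higher, with a median log2 difference of 1.00 where all genes had -0.11. *H2-Oa* and *H2-Ob*, which together form a brake on peptide loading, led with 2.01 (SE 0.18) and 1.94 (SE 0.23), followed by *H2-DMb2* at 1.40, a chain of the loading factor, and *Ciita*, the class II transactivator, at 1.26. All 10 were higher in the Aire gate than in the Trpm5 gate, where 17.2% of all genes were, with a median of 1.82. *H2-DMa* differed from the rest in being lower in the Aire gate than in the cortical marker gate (-0.82, SE 0.14, adjusted p = 3.2e-05).

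Of 11 tested hydrolases and activators, 5 were lower and 2 higher in the Aire gate than in the Ccl21a gate, where 25.4% and 18.3% of all genes were. Against the cortical marker gate 8 were lower and 3 higher, where 30.4% and 16.9% of all genes were. *Grn*, progranulin, was at -1.97 (SE 0.19) and -1.86 (SE 0.19) in these comparisons. Of 11 tested membrane and pump genes, 5 were lower in the Aire gate than in the Ccl21a gate, led by *Scarb2* at -1.66 (SE 0.14), and 2 were higher, the pump subunits *Atp6v0e* (0.96) and *Atp6v1b2* (0.93), a share near that of all genes.

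Other proteases were split. Of 7 tested, 3 were higher in the Aire gate than in the Ccl21a gate, with *Napsa*, napsin A, at 1.81 (SE 0.36), *Scpep1* at 1.12 (SE 0.19) and *Ctso* at 0.72 (SE 0.17), and 2 were lower, among them *Ctsf*, cathepsin F, at -0.86 (SE 0.25). Of all genes 18.3% were higher and 25.4% lower, so the 2 of 7 are near the background. The Trpm5 gate held more of *Ctsa*, the protective protein of lysosomal galactosidase, than the Ccl21a gate (1.00, SE 0.12) and more of the sorting receptor *Sort1* (2.48, SE 0.19). The cystatins, which inhibit cathepsins, differed in direction: between the Aire and Ccl21a gates *Cst6* was at 2.71 (SE 0.35) and *Cst3* at -1.03 (SE 0.14). Of 5 tested sorting and control genes, *M6pr*, the small mannose 6-phosphate receptor, was higher in the Aire gate (0.79, SE 0.13) and *Gnptab* lower (-0.43, SE 0.17).

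Over the 28 sums of a library and a gate, the genes most like *Ctsl* by Pearson's r of log2 levels were *Trim29*, *Kctd1* and *Gpx8* (0.97 to 0.98). *Ctsh* and *Ctsz* were among each other's nearest 3 (0.95), and *Srgn* was among the nearest 3 of *Ctss*, *Ctsh* and *Ctsz* (0.92 to 0.95). *Cd40*, the receptor of CD40 ligand, was among those of *Ctss* (0.94). The nearest gene to *Ctsd* was *Grn* (0.91), and those to *Ctsc* were *Scd1*, *Elf3* and *Ehf* (0.88 to 0.89). Of the 9 genes, *Ctsl* was most like *Ctsd* (0.85) and least like *Ctsz* (-0.76). The points share libraries and gates, so these values describe the pattern and carry no test.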

How the data were processed

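Each of the 7 libraries was 1 sample. The authors aligned reads with Cell Ranger 2.2.0 to mm10 (with a ZsGreen transcript for the lineage tracing library) and filtered cells and genes in Seurat 2.3.4. Each deposited value is a natural log: ln(1 + UMIs of the gene per 10000 UMIs of its cell). The methods state another scale factor, but every cell sums to 10000. Whole UMIs were recovered in all 8453 cells (tolerance 0.001), and 0 to 7 barcodes were shared between libraries. The study names no step against doublets, and none was added.

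UMIs of cells without *Ptprc* that passed exactly 1 gate were summed per library and gate (at least 10 cells) and fitted with limma 3.58.1 (R 4.3.3, trend) on log2(UMIs per 10000 + 0.1), with the library as a block, over genes with a mean of at least 0.1 and Benjamini-Hochberg adjustment over all of them. The step was tested on simulated data. P-values measure how the differences between gates spread over the 7 libraries, each a pool of 3 thymi. These libraries differ in treatment, week, age or genotype, so changes of a gate difference with these are part of that spread. With 1 library per treatment and week, ratios of a week carry exact Poisson intervals, and shares of cells exact binomial ones (95%, counting error only). The 4 anti-RANKL libraries were not tested as a group against the 2 controls. Thinning to 2000 UMIs left out 177 cells. Python 3.11.15 was used for sums.

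The 9 genes and the lists were chosen with earlier results of these data known. The 9 were all named. Of each list, up to 4 called genes with the largest absolute difference could be named. Alternatives were another pseudocount, filter, minimum of cells, scaling, per-cell means, thinning, cells of several gates or with *Ptprc* kept, and libraries left out. Deposited tables that join several libraries were not used here. Some genes of the lists are not reported here.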

Additional observations from a re-analysis of the deposited data

Results flagged for a closer look

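Levels outside the compared cells were higher than in any gate for several genes. *Ctsl* in cells passing the Ccl21a and cortical marker gates together had a median of 79.1 UMIs per 10000 over 7 libraries, above every single gate of the same library. In the 15 cells with *Ptprc*, at least 3 myeloid and dendritic markers other than *Lyz2* and no CD3 gene, *Ctsb* was at 15.5, *Ctss* at 7.88, *Ctsz* at 7.38, *Ctsd* at 6.76, *Ctsc* at 3.97 and *Lgmn* at 3.85, each with the lower end of its Poisson interval above the highest level of that gene in any gate and library. These cells were not part of a comparison.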

How the results depend on the processing

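Of 54 comparisons of a gene between 2 gates, 34 passed the test and 24 of these passed under every one of 18 settings that gave a value (*Lgmn* had none with median ratios), without a change of direction. Over 966 values, 872 kept direction and side of the threshold, 22 no longer passed, 31 newly passed and 41 turned, and every one that turned had not passed at first. The cause of the changes below was not tested. The settings without myeloid marker cells and without weeks 4 and 6 were chosen after the data were seen.

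The count of the 9 genes called between the Ccl21a and cortical marker gates was 1. It was 0 with cells of several gates kept and with the 3 libraries without anti-RANKL, 3 with the mean of deposited values and 2 without weeks 4 and 6. Between the Ccl21a and Trpm5 gates it was 4, and became 9 with cells of several gates kept, and 7 with the 3 libraries without anti-RANKL and without weeks 4 and 6. Leaving out 1 library in turn gave 4 to 7, with 7 without week 4. Between the Trpm5 and cortical marker gates it fell from 7 to 4 after thinning to 2000 UMIs.

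The log2 differences that turned are given next. *Ctsc*, Aire minus Ccl21a gate, was 0.07 after thinning and 0.09 without anti-RANKL libraries. *Ctsb*, Aire minus Trpm5 gate, was 0.08 with at least 20 cells, 0.18 with median ratios, 0.00 with deposited means, 0.06 thinned, 0.23 with *Ptprc* cells, 0.08 without anti-RANKL libraries and 0.07 without weeks 4 and 6. For the Ccl21a minus the cortical marker gate, keeping cells of several gates gave -0.24 for *Ctss*, -0.71 for *Ctsh*, -0.11 for *Ctsz* and 0.06 for *Lgmn*, and *Lgmn* was 0.18 thinned. *Ifi30* there was 0.04 with median ratios, 0.05 with deposited means, 0.08 thinned, 0.02 with *Ptprc* cells, 0.07 without anti-RANKL libraries and 0.03 without weeks 4 and 6. For the Ccl21a minus the Trpm5 gate *Ctss* was -0.57 with cells of several gates kept, which passed (adjusted p = 0.014, limma), -0.16 thinned, -0.03 with *Ptprc* cells and -0.02 without weeks 4 and 6. *Ctsz* there was 0.08 thinned, and *Ifi30* was 0.08 with deposited means and 0.35 thinned. *Ifi30*, Trpm5 minus cortical marker gate, was -0.03 with deposited means, -0.27 thinned and -0.03 without myeloid marker cells. Leaving out 1 library in turn, the ranges were -0.07 to 0.08 for *Ctsb* between the Aire and Trpm5 gates, -0.02 to 0.30 for *Ctsh* and -0.13 to 0.11 for *Ifi30* between the Ccl21a and cortical marker gates, -0.08 to 0.11 for *Ctss* and -0.30 to 0.10 for *Ifi30* between the Ccl21a and Trpm5 gates, and -0.22 to 0.18 for *Ifi30* between the Trpm5 and cortical marker gates.

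Counts past 1.5-fold also moved. In the Aire gate at week 2 it was 1 in place of 3 with cells of several gates kept. At week 10 it was 0 against the mean of both controls and 2 thinned in place of 1 over all TECs. In the Aire gate it was 0 against the mean of both controls and 1 thinned, with *Ptprc* cells or with per-cell means, in place of 2. In the Ccl21a gate it was 2 thinned and 2 with cells of several gates kept, in place of 1. With shares of cells in place of shares of UMIs, the fixed-share ratio at week 4 was 2.04 for *Ctsl*, 0.309 for *Ctsh*, 0.496 for *Ifi30* and 0.700 for *Ctsz*. The Aire gate at week 4 held 18 cells and the Trpm5 gate at week 6 held 16, which limits their values. Genes near 0.1 UMIs per 10000, such as *Lgmn*, rest on few UMIs, and their levels are given with that limit.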
